A study of Homo sapiens and Mus musculus with 13 samples.

Results

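Integrins, cadherins and the ICAM group are the families of cell surface receptors through which blood progenitors hold on to each other, to stroma and to matrix. The members described here are the genes of the mouse tables whose symbols name an integrin alpha or beta subunit, a numbered cadherin, a numbered ICAM, Pecam1 or Vcam1. They number 56 of the 37991 genes in the tables: 18 integrin alpha subunits, 9 integrin beta subunits, 23 cadherins and 6 genes of the immunoglobulin superfamily. A mean of at least 10 over the 5 mouse libraries, on the authors' normalized read count scale, was reached by 23 of them (12 alpha subunits, 5 beta subunits, 4 immunoglobulin superfamily genes and 2 cadherins), and these were tested. Of the other 33 members, 13 had some reads and 20 had none.

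The study sequenced RNA of a mouse haematopoietic progenitor line immortalized by HOXB8, the source of all values here, and of human leukaemia cells. NPM1c is the mutant nucleophosmin of acute myeloid leukaemia, which accumulates in the cytoplasm. The 3 knock-in libraries, labelled clones 12, 18 and 4, are single-cell clones in which NPM1ca-GFP was inserted by CRISPR/Cas9. The 2 control libraries, parental replicates 1 and 2, are the same HOXB8-immortalized line labelled wild-type. All 5 share the immortalizing HOXB8 and a medium with stem cell factor and beta-estradiol, and no drug was given. No label says that the parental cells were cloned from single cells, so the effect of the knock-in and that of cloning cannot be told apart. Separate cultures are not stated for the parental pair, so p-values measure only the spread between these libraries, which may be technical.

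Whole reads recovered from the values numbered 12235174, 9427149 and 7358340 in clones 12, 18 and 4, 9728260 in parental replicate 1 and 99557475 in parental replicate 2, so low genes were read far more precisely in the last. The targeted gene Npm1 stood at 14140 to 15140 in the clones and 25700 to 25710 in the parental libraries. Among 5 progenitor markers found in the tables (Kit, Cd34, Ptprc, Myb and Cebpa), all had reads in every library, with 2 higher and 0 lower in the clones. Some markers of other cell types passed the test as well. Calls of markers are by limma at an adjusted p under 0.05, as described below. That test called 16.0% of all genes tested, 7.51% higher and 8.49% lower in the clones. Of the tested neutrophil markers 2 of 4 were lower. Their list summed to 9933 to 21834 in the clones and 39209 and 45211 in the parental libraries, but most of that was Mpo, which was not called (adjusted p = 0.0629, limma). Without Mpo the sums overlapped, at 1483 to 2062 against 2338 and 600. Much of that was Ctsg, also not called, at 1422 to 1943 in the clones and 1866 and 260.3 in the parental libraries. The 2 lower markers, Csf3r and Elane, were below both parental libraries in every clone. Csf3r was at 46.78 to 100.5 against 278.1 and 245.5, and Elane at 13.54 to 44.38 against 188.0 and 93.43. Of the tested B and T lymphoid entries 2 of 4 were lower, Cd79b and 1 of the 2 entries of Ebf1. Cd79a and the other Ebf1 entry were not called (adjusted p = 0.425 and 0.654, limma), and no T cell marker was tested. The list summed to 735 to 1014 against 1400 and 1465. Most of that was the lower Ebf1 entry, at 719.6 to 992.2 against 1291 and 1337. Both tested erythroid markers, the beta-globin genes Hbb-b1 and Hbb-b2, were higher (list sum 58.6 to 105 against 3.11 to 8.7), while the alpha-globin genes Hba-a1 and Hba-a2 had no read. The only tested stromal marker, Pdgfrb, was not called, and Dcn, Lum, Pdgfra and Col3a1 had no read. In bulk libraries a change in the number of cells of a type and a change in RNA per cell cannot be told apart.

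An integrin is a pair of an alpha and a beta subunit, and both must be made for the receptor to reach the surface. The beta subunit sets the family: Itgb1 pairs with many alpha subunits that bind matrix or VCAM1, Itgb2 is restricted to leukocytes and binds ICAMs, Itgb3 forms the platelet fibrinogen receptor with Itga2b and a vitronectin receptor with Itgav, and Itgb7 pairs with Itga4 or Itgae. Cadherins bind their own kind on the next cell in the presence of calcium, and their classical members hold on to actin through catenins. ICAMs are immunoglobulin-like ligands of the Itgb2 integrins.

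The clones had more RNA of the integrin subunits Itga2b, Itgax, Itgb7 and Itgb2 and of Pecam1, Icam1 and Icam4 than the parental libraries, and less of the cadherin Cdh23 and of the integrin subunits Itgb3 and Itgb1. By limma on log2(value + 1), 10 of the 23 tested members passed an adjusted p under 0.05, 7 higher and 3 lower in the clones. Over all 13132 genes tested, 16.0% were called, 7.51% higher and 8.49% lower. The median absolute log2 fold change was 0.61 over the 23 members and 0.28 over all genes tested, and 10 of the 23 members moved at least 2-fold against 10.2% of all genes. The signed median was -0.05 for the members and 0.01 for all genes. Cdh23, Icam4, Itgax and Itgad passed the minimum of 10 only through the group in which they were high. The 19 members with both group means at 10 or more had a median absolute log2 fold change of 0.34, close to the 0.27 of all such genes, and 6 of them moved at least 2-fold against 7.31%. Of these 19 members 7 were called, 5 higher and 2 lower, where the shares over all such genes were 14.8%, 6.71% and 8.14%. Clone and parental libraries did not overlap in 14 of the 23 members, 7 in each direction, and in 50.2% of all genes tested (every clone above both parental libraries in 24.5%, below both in 25.8%).

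**Figure D1:**
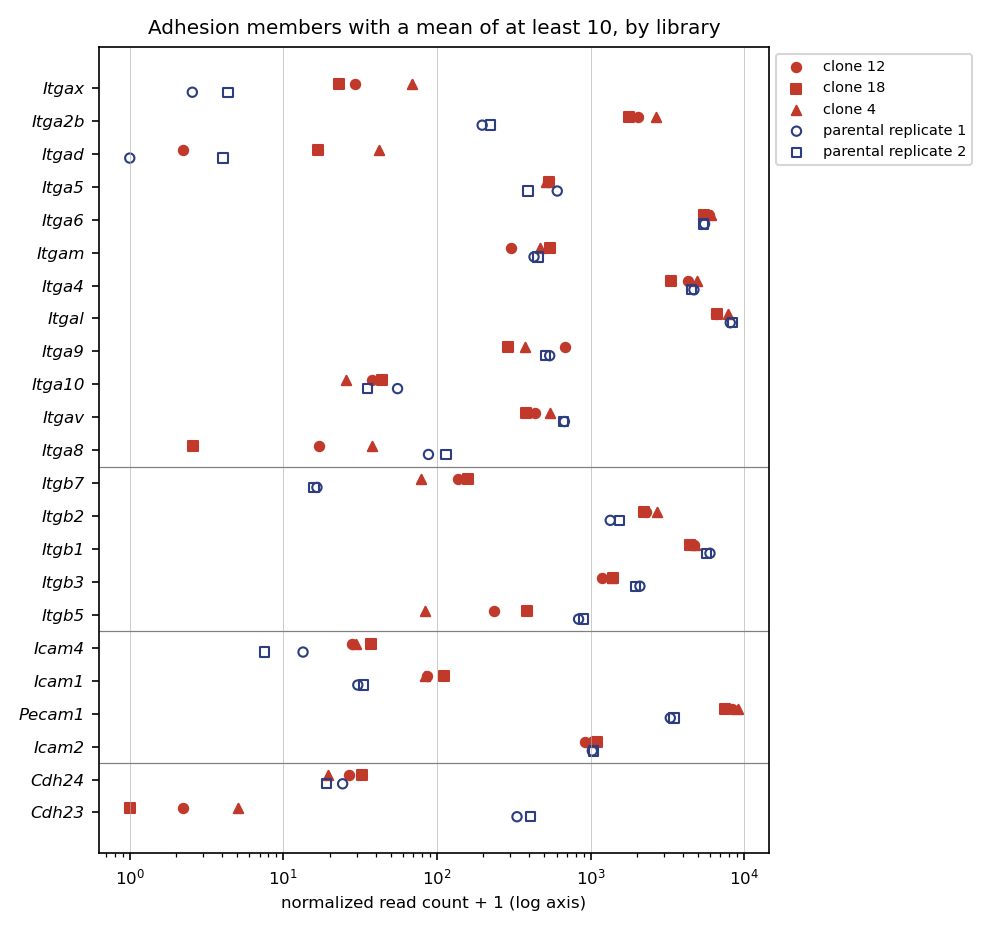
Normalized read count plus 1 (log axis) of the 23 tested members in each library, with filled symbols for the 3 knock-in clones and open symbols for the 2 parental libraries, and lines between alpha subunits, beta subunits, immunoglobulin superfamily genes and cadherins. The clones of Itga2b lie at 1783 to 2675 against 195.8 and 222.7 in the parental libraries, and those of Cdh23 at 0 to 4.103 against 330.9 and 403.6.

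**Figure D2:**
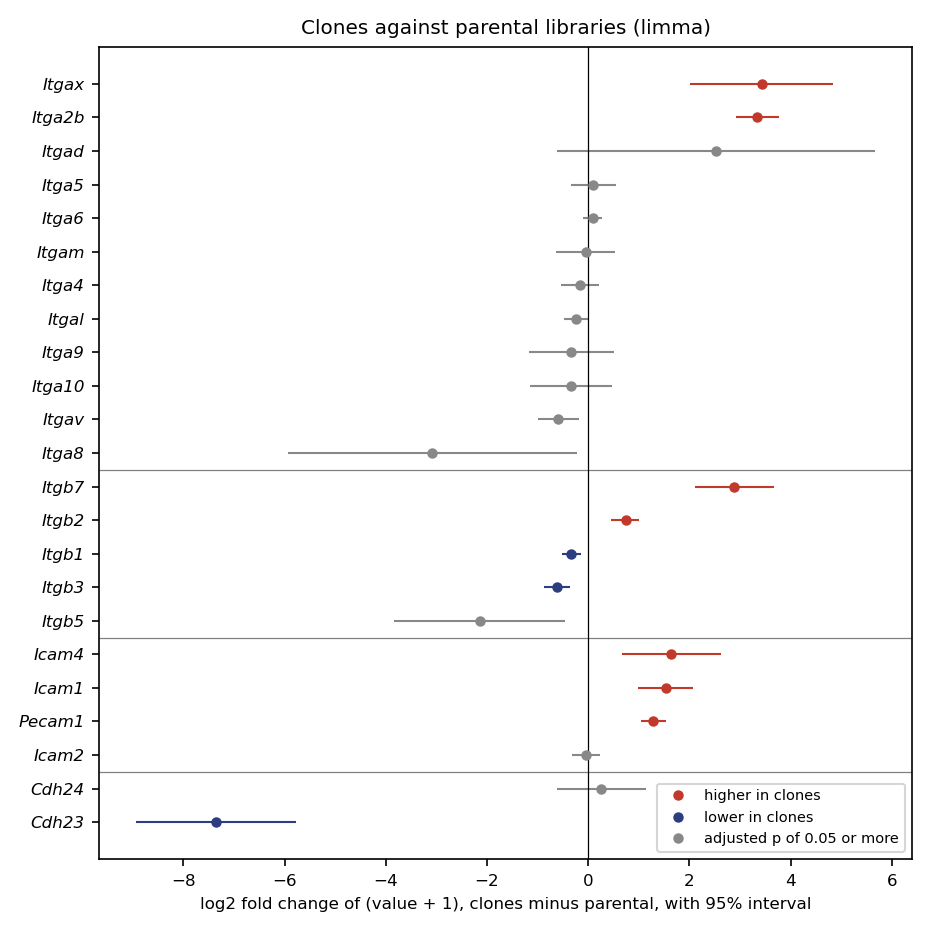
Log2 fold change of (value + 1), clones minus parental, with its 95% interval from limma, for the 23 tested members in the same family order. The 7 members higher in the clones are red, the 3 lower are blue, and grey members did not pass an adjusted p of 0.05.

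Among the alpha subunits, Itga2b, the platelet and megakaryocyte fibrinogen receptor chain that is also present on early progenitors and mast cells, stood at 2024, 1783 and 2675 in clones 12, 18 and 4 and at 195.8 and 222.7 in parental replicates 1 and 2. Every clone was far above both parental libraries. The log2 fold change was 3.34 (SE 0.181, adjusted p = 0.000112, limma), or 10.2-fold. Its beta partner Itgb3 moved the other way, at 1190, 1408 and 1383 in the clones and 2094 and 1951 in the parental libraries. The groups of Itgb3 did not overlap, with a log2 fold change of -0.61 and an adjusted p of 0.0116 (limma, SE 0.113), a call that missed the threshold without parental replicate 1 (adjusted p = 0.0509). Within a library, the ratio of Itga2b to Itgb3 was 1.70, 1.27 and 1.93 in the clones and 0.0935 and 0.114 in the parental libraries. That ratio, in which gene length cancels between libraries, was on average 15.7 times higher in the clones.

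Because Itga2b marks megakaryocytes, the other megakaryocyte markers are given beside it. Of 10 listed, 9 had reads and Gp6 had none, and 0 of the 4 tested (Pf4, Gp1ba, Gp9 and Vwf) passed limma's test. The list summed to 279 to 535 in the clones and 256 and 173 in the parental libraries. Its largest part in each library was Pf4, at 217.2 to 385.7 against 167.8 and 75.57 (adjusted p = 0.0814, limma), so the sum says little of the other markers. Gp1ba was at 20.93 to 49.24 against 15.54 and 11.91, while Gp9 and Vwf overlapped between the groups. Of the 6 tested mast cell and basophil markers 4 were higher in the clones (Il1rl1, Tpsb2, Ms4a2 and Mcpt8) and 0 lower. The list summed to 5441 to 8010 against 3490 and 1260, and most of that was Cpa3 and Hdc, which were not called. Without Cpa3 and Hdc the sums were 1561 to 2138 against 255 and 153. Nearly all of the remainder came from the 4 called markers, so it only repeats their calls. Fcer1a, Cma1, Tpsb2 and Mcpt4 had no parental read. The part of either marker set in the Itga2b difference was not tested.

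The other alpha subunit that passed was Itgax, known as CD11c, which pairs with Itgb2 and marks dendritic cells and some macrophages. It stood at 28.31, 22.19 and 67.7 in clones 12, 18 and 4 and at 1.554 and 3.359 in the parental libraries. The groups did not overlap, on 70 reads in the clones and 23 in the parental libraries. The log2 fold change was 3.43 (SE 0.607, adjusted p = 0.0101, limma), and the ratio of the group means was 16-fold, above the 10.8-fold of the log2(value + 1) scale. Its relative Itgad, a chain of the same leukocyte set, was at 1.231, 15.85 and 41.03 in the clones and 0 and 3.053 in the parental libraries. Clone 12 lay between the parental values of Itgad, so the groups overlapped (log2 fold change 2.53, SE 1.34, adjusted p = 0.243, limma). Itgam, or CD11b, the neighbour of Itgax in the genome and a marker of myeloid cells, was at 301.6, 546.9 and 469.8 in the clones and 427.3 and 453.1 in the parental libraries. The clones of Itgam lay on either side of the parental values (95% interval of the log2 fold change -0.63 to 0.54). The ratio of Itgax to Itgam was 0.0939, 0.0406 and 0.144 in the clones and 0.00364 and 0.00741 in the parental libraries. In parental replicate 1 that ratio rests on 1 Itgax read, and in parental replicate 2 on 22.

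Dendritic and macrophage markers did not share a single direction. Of the 3 tested dendritic markers H2-Ab1 was higher (log2 fold change 2.43) and Flt3 lower (-0.53), Irf8 was not called, Xcr1 had no parental read, and H2-Aa and Siglech had no read in any library. The dendritic list summed to 3945 to 4635 in the clones and 5665 and 5774 in the parental libraries. Most of that sum was Flt3, at 3496 to 4185 against 5446 and 5521, so it says little of the other dendritic markers. H2-Ab1 was at 242.5 to 404.1 against 63.7 and 45.04, and Irf8 at 38.98 to 180.7 against 155.4 and 207.8. Of the 5 tested monocyte and macrophage markers, Emr1, which encodes F4/80, was higher (531.8 to 937.5 against 153.8 and 190.5) and the other 4 were not called, Marco had no read, and the list summed to 4711 to 8741 against 8284 and 8793. Without the abundant Ccr2, which was not called, that sum was 649 to 1069 against 376 and 393. In every clone most of it was Emr1, so it says little of the other macrophage markers. Csf1r and Cd14 overlapped between the groups, and Ly6c2 was at 0 to 25.36 against 45.06 and 38.01. The part of these markers in the Itgax difference was not tested.

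Itgb2, or CD18, the common chain of the leukocyte integrins, was at 2301, 2238 and 2687 in the clones and 1342 and 1541 in the parental libraries. Every clone was above both parental libraries, 0.74 log2 units higher on average (limma, SE 0.119, adjusted p = 0.00701). Itgal, which forms LFA-1 with Itgb2, was at 6523, 6634 and 7861 in the clones and 8113 and 8370 in the parental libraries. All 3 clones were below both parental libraries, but Itgal missed the threshold (log2 fold change -0.24, SE 0.0995, adjusted p = 0.149, limma) except without clone 4 (0.0263). The ratio of Itgb2 to Itgal was 0.337 to 0.353 in the clones and 0.165 and 0.184 in the parental libraries, so the beta chain stood higher relative to this alpha chain in every clone.

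Itgb7, which forms the gut-homing receptor with Itga4 and is carried by mast cell progenitors, had the largest rise of the 5 tested beta subunits. It stood at 136.6, 158.5 and 77.96 in clones 12, 18 and 4 and at 15.54 and 14.81 in the parental libraries. Even the lowest clone was well above both parental values, and the log2 fold change was 2.89 (SE 0.333, adjusted p = 0.00173, limma). Of its alpha partners, Itga4, which also pairs with Itgb1 to bind VCAM1 and fibronectin, was at 4298, 3319 and 4909 in the clones and 4705 and 4522 in the parental libraries. The parental values of Itga4 lay within the range of the clones (95% interval -0.53 to 0.21). The alternative partner Itgae stayed below the minimum, at 3.693, 6.341 and 0 in the clones and 0 and 1.832 in the parental libraries. As a ratio to Itgb1, which competes for Itga4, Itgb7 was at 0.0163 to 0.0356 in the clones and 0.00259 and 0.00261 in the parental libraries.

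Itgb1, the most widely shared beta subunit, was at 4683, 4454 and 4780 in the clones and 5988 and 5665 in the parental libraries. The groups did not overlap and the difference was small, -0.33 on the log2 scale by limma (SE 0.0806, adjusted p = 0.0313). This call did not hold without clone 12, clone 18, parental replicate 1 or parental replicate 2 (adjusted p = 0.104, 0.0783, 0.134 and 0.0921). Its laminin-binding partner Itga6 was at 5437 to 6089 in the clones and 5520 and 5425 in the parental libraries, with a 95% interval of -0.11 to 0.28. The fibronectin receptor chain Itga5 was at 508.8 to 537.4 in the clones, while the parental libraries stood apart from each other at 605.9 and 391.1 (log2 fold change 0.10, or -0.21 without parental replicate 2). Itga9, a chain that binds tenascin and VCAM1, ran from 288.5 in clone 18 to 679.5 in clone 12, around the parental 540.7 and 509.1. The collagen-binding Itga10 was at 24.62 to 42.8 in the clones and 54.38 and 34.35 in the parental libraries, and it was not called either.

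**Figure D3:**
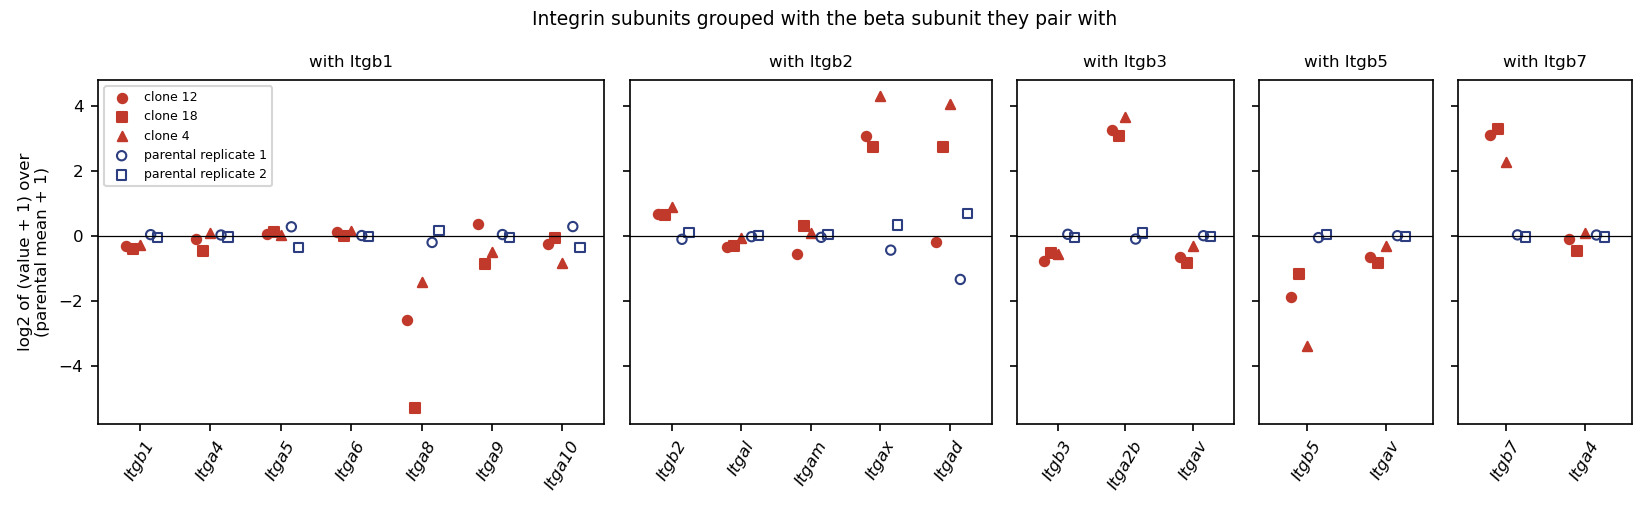
Each library's log2 of (value + 1) over (parental mean + 1) for the tested integrin subunits. Each panel holds a beta subunit and alpha subunits that pair with it, but not every known pair is drawn (Itga4 and Itgav appear in 2 panels). In the Itgb3 panel the clones of Itga2b lie above 0 and those of Itgb3 and Itgav below it, and in the Itgb7 panel Itgb7 is above 0 in every clone while Itga4 lies around it.

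A further 3 subunits that bind the RGD sequence of matrix proteins were lower in each clone than in either parental library without passing the test. Itgav, the vitronectin receptor chain, was at 430.9, 378.8 and 541.6 in the clones and 674.3 and 666.8 in the parental libraries. The parental values of Itgav were close together and above every clone (log2 fold change -0.59, SE 0.173, adjusted p = 0.0568, limma), and it passed without clone 4 (0.0154) and with DESeq2 on whole reads (0.0172). Itgb5, which pairs with Itgav alone, was at 235.1, 382.0 and 82.06 in clones 12, 18 and 4 and at 834.3 and 894.2 in the parental libraries. Its clones were 2.14 log2 units lower than the parental libraries and spread widely among themselves (SE 0.658, adjusted p = 0.0968, limma). Without clone 4, the lowest, the change was -1.52 with an adjusted p of 0.00858. Itga8, which pairs with Itgb1 and binds nephronectin, was at 16.0, 1.585 and 36.93 in the clones and 87.01 and 113.3 in the parental libraries. Clone 18 held a single read of Itga8, and the change of -3.08 log2 units (limma, SE 1.14, adjusted p = 0.137) became -1.98 with an adjusted p of 0.0341 without it.

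In the immunoglobulin superfamily, Pecam1, a receptor at the contacts of endothelial cells, platelets and leukocytes that binds its own kind, was at 8356, 7452 and 9160 in the clones and 3302 and 3493 in the parental libraries. All 3 clones were more than 2-fold above both parental libraries (log2 fold change 1.29, SE 0.103, adjusted p = 0.000466, limma). Of the endothelial markers 0 of 2 tested were called (Egfl7 and Tie1), Cdh5, Tek and Emcn had no read, Kdr had no parental read, and the list summed to 174 to 252 in the clones and 230 to 242 in the parental libraries. Icam1, an Itgb2 ligand that inflammation induces in many cells, was at 84.94, 109.4 and 82.06 in the clones and 29.52 and 32.21 in the parental libraries. The groups were well apart, 1.54 log2 units higher in the clones by limma (SE 0.236, adjusted p = 0.00583).

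Icam4, an erythroid adhesion molecule, was at 27.08, 36.46 and 28.72 in the clones and 12.43 and 6.565 in the parental libraries. The groups did not overlap (log2 fold change 1.64, SE 0.418, adjusted p = 0.0355, limma), on 59 reads in the clones and 51 in the parental libraries. The call was lost without clone 12, clone 18 or parental replicate 2 (adjusted p = 0.0896, 0.0952 and 0.179) and without the filter on low values (0.0582). Icam5, a neuronal ICAM that lies beside Icam1 and Icam4 in the genome, was below the minimum at 7.386, 6.341 and 4.103 in the clones and 0 and 1.374 in the parental libraries. In the fit without a filter Icam5 did not pass either (log2 fold change 2.14, SE 0.575, adjusted p = 0.0927, limma). Since these genes adjoin and the counting settings are not known, reads shared between Icam4 and Icam5 cannot be told apart. The erythroid globin markers given above were higher in the clones as well, and their part in the Icam4 difference was not tested. Icam2, which many leukocytes carry constantly, was at 922.1, 1098 and 995.0 in the clones and 1025 and 1044 in the parental libraries (95% interval -0.32 to 0.23). The ratio of Icam1 to Icam2 was 0.0825 to 0.0996 in the clones and 0.0288 and 0.0309 in the parental libraries.

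Among the cadherins only Cdh23 and Cdh24 reached the minimum. Cdh23 is an atypical, very long cadherin known from the tip links of hair cells in the inner ear. It had 1, 0 and 2 reads in clones 12, 18 and 4, against 213 and 2644 reads in parental replicates 1 and 2, which gives values of 1.231, 0 and 4.103 against 330.9 and 403.6. Both parental libraries were high and the clones were nearly empty (log2 fold change -7.35, SE 0.677, adjusted p = 0.000928, limma). With 3 reads in the clones the level was 256 times lower after normalization (87.4 to 1240 by 95% counting limits). The gene 4632428N05Rik, the immune receptor Vsir, lies inside Cdh23 in the genome and was lower in the clones too, at 97.25, 169.6 and 182.6 against 368.2 and 327.0 (log2 fold change -1.26, SE 0.280, adjusted p = 0.0236, limma). The clones thus held reads of that gene with almost none of Cdh23. Cdh24, a classical-type cadherin, was at 18.46 to 31.7 in the clones and 23.31 and 18.01 in the parental libraries and was not called (95% interval -0.62 to 1.14).

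Of the 33 members under the minimum, 4 had at least 10 reads in a library. The closest was Cdh1, E-cadherin, at 24.62, 6.341 and 4.103 in the clones and 1.554 and 12.67 in the parental libraries, just under the minimum, where Itgad with a mean of 12.2 was just above it. The values of Cdh1 overlapped between the groups. Cdh11, a mesenchymal cadherin, was at 3.693, 11.1 and 4.103 against 9.322 and 4.58. Itgb4, the hemidesmosome subunit, was at 1.231, 0 and 24.62 against 0 and 11.6, so a single library of each group held most of its reads. Itgae is given above with Itgb7. Itga3, a laminin receptor chain, had 10 clone reads, 8 of them in clone 12, and no parental read. Its clone mean of 4.495 was 10.8-fold above a parental floor of 3 reads in all. This ratio allows for no counting error in the clone reads and is not a lower bound, with 1 read each in clones 18 and 4. It fell to 0.964, no longer a rise, when only parental replicate 1 set the floor. Icam5, Itga3 and the genes named next were chosen after their values were seen. In the fit without a filter 0 of the 13 members with reads passed limma's adjusted threshold, and 2, Icam5 and Itga3, had an unadjusted p under 0.05.

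The 20 members without a read in any library were 16 cadherins together with Vcam1, Itga2, Itgb6 and Itgbl1. They include Cdh5, which defines endothelium, Cdh2, or N-cadherin, Vcam1, the stromal ligand of Itga4 with Itgb1, and Itga2, a collagen receptor chain. A count of 0 allows up to 1.55 on the normalized scale in the clones (3 reads over the group) and up to 0.417 in the parental libraries, for counting error only.

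The proteins that act with these receptors were taken from 5 lists. Of 32 tested genes of integrin activation and signalling, 2 were higher, 3 lower and 27 not called, a share of 15.6% beside 16.0% over all genes, with a median log2 fold change of 0.00. Rapgef3, which activates the small GTPase RAP1 in response to cyclic AMP, was at 2647, 2923 and 2507 in the clones and 497.2 and 501.7 in the parental libraries, 5.37-fold higher (adjusted p = 6.08e-05, limma). Rasgrp2, the calcium-responsive activator of RAP1 in platelets and neutrophils, was lower in all 3 clones, at 4109, 4793 and 3717 against 7279 and 7713 (adjusted p = 0.0036, limma). Thus the 2 exchange factors for RAP1 named here moved in opposite directions. Lims1, an adaptor of integrin-linked kinase, was 1.42-fold lower (adjusted p = 0.00921, limma). Src was at 12.31, 19.02 and 49.24 against 0 and 4.275 (adjusted p = 0.0429, limma), a call that was lost without clone 12, clone 18, clone 4 or parental replicate 1, without the filter, with a pseudocount of 0.5 and with edgeR.

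Among catenins and cadherin partners 1 of 11 tested was higher and 2 were lower (27.3%, median -0.28). Ctnnb1, beta-catenin, which links classical cadherins to alpha-catenin and carries WNT signals, was at 7003 to 7381 in the clones and 9731 and 9880 in the parental libraries, 1.37-fold lower (adjusted p = 0.00676, limma). Jup, or gamma-catenin, its close relative, was higher at 278.2, 367.7 and 400.0 against 129.0 and 159.1 (adjusted p = 0.00734, limma). Dsp, the desmosomal linker, had 1 read in the clones and 605 in the parental libraries, 162 times as many after normalization (29.0 to 6420 by 95% counting limits), and its adjusted p was 0.065 without parental replicate 2 (limma). The Cdh23 partners of hair cells Ush1c, Ush1g and Pcdh15 had no read in any library.

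Integrin surface partners were called in 5 of 16 tested (31.2%, median 0.17). The tetraspanins Cd63 and Cd37 were higher, 2.18-fold and 1.70-fold, and Cd81 was lower, 1.67-fold, a call lost without clone 12 (adjusted p = 0.053, limma). Slc3a2, the CD98 chain that binds beta subunits, was 1.58-fold higher. Cd44, the hyaluronan receptor, was at 11440, 11220 and 12450 in the clones and 19090 and 21580 in the parental libraries, 1.74-fold lower (adjusted p = 0.00135, limma). In the list of selectins, junctional adhesion molecules and other leukocyte adhesion genes 2 of 8 were called (25.0%, median 0.11). Of these Cd48, a ligand of CD244 and CD2, was 2.14-fold higher, and Glg1, an E-selectin ligand, was 1.28-fold lower, a call lost without any single library (adjusted p from 0.0528 to 0.149, limma).

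Of 12 tested integrin ligands and matrix genes 1 was higher and 2 lower (25.0%, median -0.76). Lama5, a laminin chain bound by Itga6 with Itgb1, was at 705.4, 610.3 and 629.8 in the clones and 234.6 and 232.7 in the parental libraries, 2.76-fold higher (adjusted p = 0.000928, limma). Ltbp1, which tethers latent TGF-beta in the matrix, was at 29.55, 45.97 and 10.26 against 320.1 and 252.1 (adjusted p = 0.0141, limma). Tgfb3, whose latent form Itgav integrins can bind, was at 12.31, 3.17 and 6.154 against 79.24 and 72.06 (adjusted p = 0.00673, limma). Both were lower in every clone. Ltbp1 missed the threshold without clone 12 (0.0537) and Tgfb3 without parental replicate 2 (0.0571).

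The calls of the members did not all stand equally firm. Itga2b, Itgax, Itgb7, Itgb2, Pecam1, Icam1 and Cdh23 passed in the reported fit and under each alternative run for them, while Itgb3, Itgb1 and Icam4 missed the threshold under some.

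**Figure D4:**
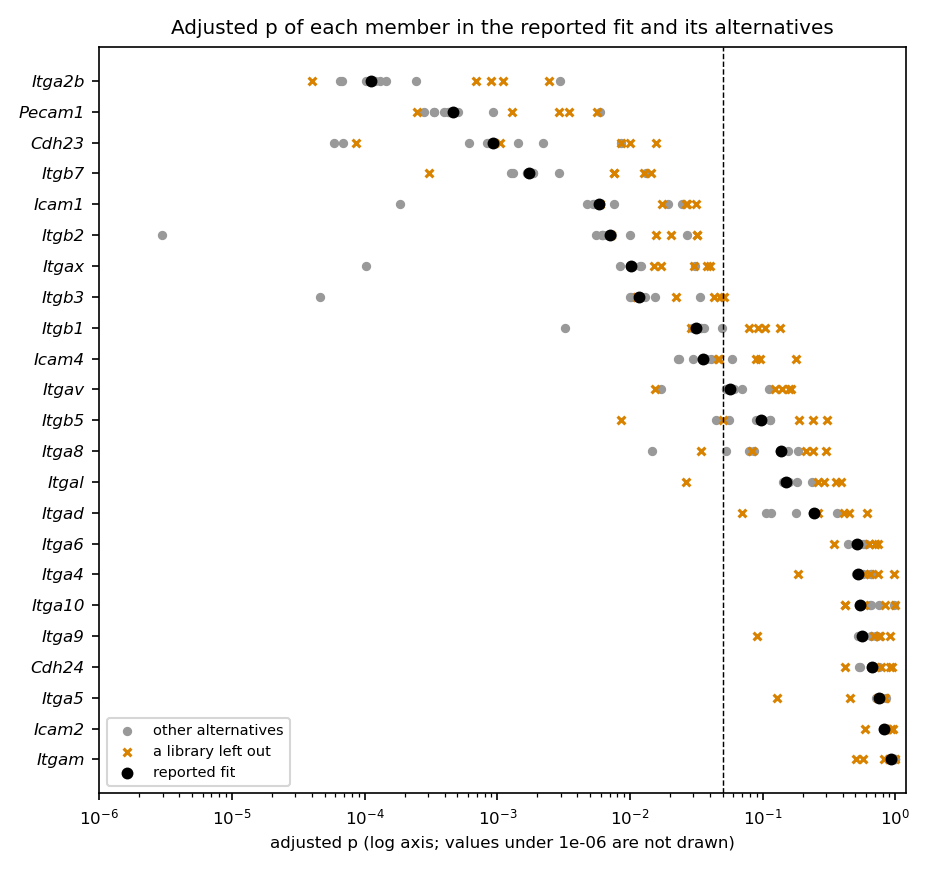
Adjusted p (log axis) of each tested member in the reported limma fit (black), with a library left out (orange crosses) and under the other alternatives (grey), with a dashed line at 0.05; values under 1e-06 are not drawn. For 7 members all drawn points lie left of the line, while for Itgb3, Itgb1 and Icam4 some lie right of it.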

How the data were processed

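RNA was taken up with RNeasy micro columns and mouse libraries were made with NEBNext Ultra II, per the labels' protocols. Builds mm9 and hg19 and the tools DESeq2, RSEM and STAR 2.6.1 are listed in the submitters' processing notes, with no role. For the annotation, the counting settings and the use of strand, the step is not given in the sources used here. The deposited value is a signal: reads per gene that the authors divided by a size factor per library. Whole reads were recovered by dividing by each library's smallest value, which left 100% of non-zero values whole (tolerance 0.01). Groups and clone numbers follow the sample titles; column headers number the clones differently within the same group.

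Values were tested with limma 3.58.1 (R 4.3.3, trend, robust moderation) on log2(value + 1) for 13132 genes with a mean of at least 10, with Benjamini-Hochberg adjustment over all of them. Alternatives were 2 pseudocounts (0.5 and 5), no filter and a minimum of 50, library totals, TMM, edgeR 4.0.16 and DESeq2 1.42.0 on whole reads, a thinned parental replicate 2, no robust moderation, and each library left out. No replicate pair matched within sampling noise, so each library was counted. Chi-square per degree of freedom was 6.23 to 11.43 between clones and 29.58 between the parental libraries, a measure that also grows with depth. Some well-read genes differed several-fold between parental replicates 1 and 2, such as Cpa3 at 2450 and 386.2 and Fermt3 at 1812 and 543.2. Every tested member is named, with members below the minimum that had at least 10 reads in a library, and the called genes of 5 adhesion lists (at most 6 each). Marker lists cover megakaryocyte, mast cell, macrophage, neutrophil, dendritic, endothelial, stromal, erythroid, lymphoid and progenitor genes. Members and lists were chosen with earlier results of these data known. Of the listed symbols Adgre1 (present as Emr1), Spi1, Syk, Cd98, Cd58 and Cd99 were not matched. Intervals and floors cover counting error only, except those of fold changes. A few list genes are not reported here. Human libraries were not analysed here.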

Additional observations from a re-analysis of the deposited data

How the results depend on the processing

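Of the 10 called members, 7 stayed past the threshold under each alternative run (15, or 14 for members with a mean under 50), and Itgb3, Itgb1 and Icam4 did not. Leaving out 1 library at a time gave 8 to 13 called members, 6 to 7 higher and 1 to 6 lower, and 981 to 2117 genes called over the whole table, 464 to 1216 higher and 396 to 1120 lower; the counts over the table were lowest without clone 12 (1015) and without parental replicate 2 (981). The count of lower members was 6 without clone 4, where 1120 genes were lower over the whole table, against 1115 in the reported fit. A fit without a parental library leaves 1 such library, which is assumed to vary like the clones. DESeq2 on whole reads called 5 lower members, adding Itgav and Itga8, and called 1383 genes lower over the whole table. Among members not called, 4 passed under some alternative (Itgav, Itgb5, Itga8 and Itgal) and 4 changed sign: Icam2 (-0.11 to 0.02 with a library left out, positive without clone 12), Itgam (-0.22 to 0.20, positive without clone 12), Itga5 (-0.21 to 0.42, negative without parental replicate 2) and Itga10 with parental replicate 2 thinned to the depth of replicate 1 (0.02). The cause was not tested. No paired analysis was possible because the clones and the parental libraries share no replicate number. Parental replicate 2 is by far the deepest library, so a low parental value rests mostly on it.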
